A study of Mus musculus with 8 samples.

Results

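DNA methylation was examined across the 4 Hox gene clusters of the mouse in a cell fraction collected as type A spermatogonia from F1 males. The Hox windows were defined as every measured cytosine from 2 kb upstream of the transcription start to 1 kb past the end of a gene in the mm10 RefSeq annotation, for 38 Hox genes chosen by symbol and not by any measured value. They held 3176 of the 2130064 cytosines that were covered in all samples, and 331 of them lay in more than 1 gene window. The 8 samples were 4 pools of the control group and 4 pools of the arsenic group, all of C3H/HeN mice. Sodium arsenite at 85 ppm was given to dams of the arsenic group in their tap water between gestational days 8 and 18, and dams of the control group drank tap water alone. The F1 males were sampled at postnatal day 6. Testis cells were selected with magnetic beads carrying an antibody to CD49f/Itga6, an integrin that is also present on other cells. Each pool joined 8 testes of 4 mice, so the spread reported here is that between pools and animals within a pool cannot be told apart.

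Hox genes code for homeodomain transcription factors that give cells along the body axis and the limbs their positional identity. In mammals they sit in 4 clusters that arose from 1 ancestral cluster, and genes at corresponding places in the clusters are called paralogs and share a number. Low numbers lie at the 3′ end of a cluster and are used towards the head, and high numbers lie at the 5′ end and are used towards the tail and the limb tips. In cells that do not use them the clusters are commonly held silent by Polycomb group proteins, and CpG-dense DNA under such control is commonly low in DNA methylation. Methylation at a cytosine was given as the percentage of reads that kept the cytosine after bisulfite treatment, and the average methylation level of a region was the mean over its cytosines within 1 pool.

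Depth was similar in the pools. Coverage summed over cytosines, in which a read counts once for each cytosine it covers, was 96428439 to 133406260 in a pool and 119183 to 165866 over Hox cytosines. The median coverage of a Hox cytosine was 29 to 40 reads per pool with a minimum of 10. Mitochondrial cytosines, which served as a gauge of cytosines left unconverted, read 1.27% to 1.47% in the control pools and 1.07% to 1.29% in the arsenic pools. Hox levels from 1.07% to 1.47% could not be distinguished from that background. The part of conversion in the differences between the groups was not tested. The conversion rates stated in the study's methods leave a larger unconverted share than this gauge, so Hox levels of a few percent are not firmly above background either. The cell type label was checked against promoters whose methylation differs between germ cells and somatic cells. Promoters of germ line genes, which are unmethylated in germ cells, averaged 82.0% over 10 of 12 listed genes (60.7% to 94.9% by gene, with Dazl at 94.9% and Ddx4 at 80.2%). Promoters listed as maternally imprinted, and so as unmethylated in male germ cells, had a median of 56.4% over 11 of 14 listed genes. Apart from Zim1 (1.68%), whose place in that list was not checked, they ran from 40.9% (Inpp5f) to 76.7% (Mest). By these promoters alone the values go against the label, and marker expression was not analysed here. The study reports by real-time PCR that this fraction expressed the type A markers Itga6 and Gfra1 more than a fraction from fetal testes. Its samples also grouped by germ cell stage in a principal component analysis of methylation. The germ line promoters ranged from 81.1% to 85.9% in the control pools and from 77.7% to 83.5% in the arsenic pools. The promoters of 6 of 8 listed Sertoli cell genes averaged 7.88% with a range of 6.70% to 8.70% over the pools. By gene they ran from 0.990% (Gata4) to 28.2% (Fshr). The median promoter of 10926 genes was at 1.76%, so low levels there are not read as a sign of Sertoli cells. Of the listed Leydig cell and blood or vessel genes, only Cyp11a1 (2.87%) and Pecam1 (92.8%) had a promoter that could be read. The part of cell composition in the Hox values was not tested.

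Methylation was low on average in the Hox windows, with some highly methylated stretches. The average methylation level was 5.50% over the 8 pools, against 54.1% at all other cytosines, and the gap was present in 8 of 8 pools (exact sign-change test over pools, two-sided, p = 0.00781, the smallest it can give). Other families of developmental regulators were not as low: the windows of 56 genes of the Pax, Tbx, Lhx, Dlx, Nkx and sine oculis families (7997 cytosines), which also code for transcription factors of the embryo, averaged 11.8%. The clustered protocadherins, 57 adhesion genes that are likewise arranged side by side (1800 cytosines), averaged 40.4%. Hox windows lay 6.31 points below the former and 34.9 points below the latter in every pool (exact sign-change test, adjusted p = 0.00781 for both). Of the Hox cytosines, 2286 (72.0%) were below 5%, 682 lay between 5% and 20%, 174 between 20% and 50%, 32 between 50% and 80%, and 2 at 80% or more. At all other cytosines, 26.5% were below 5% and 43.3% were at 80% or more. In the Pax, Tbx, Lhx, Dlx, Nkx and sine oculis windows, 71.9% were below 5%, close to the Hox share, while 4.71% lay between 50% and 80% and 5.73% at 80% or more, against 1.01% and 0.0630% in Hox.

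The Hox average differed by less than the spread between pools. It was 5.29%, 5.40%, 5.61% and 5.50% in the control pools and 5.95%, 5.67%, 5.17% and 5.43% in the arsenic pools. The groups overlapped, with arsenic pool 1 highest and arsenic pool 3 lowest of the 8. The means were 5.45% ± 0.136 (SD, n = 4) and 5.56% ± 0.335 (SD, n = 4), which are +0.11 points apart (two-sided exact permutation test, p = 0.571). This difference turned slightly below 0 with at least 20 reads, with coverage weights and when a single pool was left out (lowest -0.0228 points). All other cytosines averaged 54.2% ± 0.0804 (SD, n = 4) in the control group and 53.9% ± 0.175 (SD, n = 4) in the arsenic group and did not overlap (difference of -0.31 points, exact permutation p = 0.0286, the smallest that 4 against 4 allows). The Hox difference exceeded that of the other cytosines by 0.42 points (exact permutation p = 0.0286). This call was lost when only cytosines with at least 20 reads were used (0.28 points, exact permutation p = 0.114), when only those with at least 30 were used (0.44 points, exact permutation p = 0.0857) and when cytosines were weighted by coverage (0.68 points, exact permutation p = 0.143). Within classes of like level the contrast was above 0 in the 4 classes tested and passed no adjusted test. Between 20% and 50% the Hox difference was -0.19 points and that of the others -1.30 points, the lowest p of the 4 (exact permutation p = 0.0286, adjusted p = 0.114). Between 5% and 20% they were +0.48 and -1.07 points (exact permutation, adjusted p = 0.152). The 32 Hox cytosines between 50% and 80% differed by +1.20 points against -0.50 (exact permutation, adjusted p = 0.543).

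The clusters held similar numbers of measured cytosines. The Hoxa cluster (chr6:52162417-52260880, 10 genes) had 934, the Hoxb cluster (chr11:96194316-96368253, 10 genes) had 704, the Hoxc cluster (chr15:102921131-103036852, 9 genes) had 694 and the Hoxd cluster (chr2:74668225-74765142, 9 genes) had 844. Restriction-based sampling reached 2364 of the 9034 CpGs in these windows (26.2%), from 24.9% in Hoxb to 30.7% in Hoxc, so most Hox CpGs were not read. Average levels were 4.20% in Hoxb, 5.02% in Hoxa, 6.27% in Hoxd and 6.54% in Hoxc. Hoxb was below Hoxa by 0.82 points (7 of 8 pools, exact sign-change test, adjusted p = 0.0188), a gap that shrank to 0.32 points and lost its call (adjusted p = 0.18) when only cytosines with at least 30 reads were used. It was below Hoxd by 2.07 points and below Hoxc by 2.34 points, each in 8 of 8 pools (exact sign-change test, adjusted p = 0.0117 for both). Hoxa was below Hoxc by 1.52 points and below Hoxd by 1.25 points in 8 of 8 pools (exact sign-change test, adjusted p = 0.0117 for both), although the gap to Hoxd shrank to 0.14 points, and its call was lost, when each gene counted once. The order of Hoxc and Hoxd depended on the processing. Hoxc minus Hoxd was 0.27 points with every cytosine counted alike (6 of 8 pools, exact p = 0.164) and 1.47 points with each gene counted once. It turned to -1.45 and -3.91 points with at least 20 and 30 reads and to -0.53 points with coverage weights. These other 4 values passed the exact sign-change test (adjusted p from 0.00938 to 0.0391).

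No cluster passed the test of a difference between the groups. Hoxa averaged 5.0% ± 0.501 in the control group and 5.04% ± 0.488 in the arsenic group (SD, n = 4 each), a difference of +0.03 points. Hoxb averaged 4.10% ± 0.394 and 4.29% ± 0.279 (SD, n = 4 each), a difference of +0.19 points. Hoxc averaged 6.59% ± 0.414 and 6.49% ± 0.497 (SD, n = 4 each), a difference of -0.10 points. The signs for Hoxa and Hoxc turned with both strands summed and when single pools were left out. Hoxd averaged 6.12% ± 0.169 and 6.42% ± 0.471 (SD, n = 4 each), a difference of +0.30 points. The groups overlapped in all 4 clusters, and the exact permutation test gave an adjusted p of 0.83 for each.

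Over the clusters together, promoters, taken as 1 kb before to 100 bases after the start, were lowest of the 4 regions compared. The 647 promoter cytosines averaged 3.41%, the 1244 exon cytosines 4.96%, the 880 intron cytosines 7.11% and the 405 cytosines of the outer flanks 7.02%. A cytosine in several kinds of region counted as promoter first, then as exon, intron and flank. Of the intron cytosines, 353 lay in Hoxa and 302 in Hoxd, where the long transcripts of Hoxa3 and Hoxd3 span neighbouring genes. Sequence between those genes therefore counted as intron. The exon average included 124 cytosines of 3′ untranslated exons at 18.1%. Coding exons (3.57%) and 5′ untranslated exons (3.12%) lay close to promoters. Promoters were 1.54 points below exons and 3.69 points below introns, and exons were 2.15 points below introns, each in 8 of 8 pools (exact sign-change test, adjusted p = 0.00938 for all). The gap between promoters and introns held under every alternative tried, but that between promoters and exons was +0.09 points with promoters drawn 2 kb upstream, and that between exons and introns was lost at a coverage of at least 30 reads (+0.12 points) and with each gene counted once (-0.35 points). Promoters averaged 3.26% ± 0.25 in the control group and 3.57% ± 0.398 in the arsenic group (SD, n = 4 each). Exons averaged 4.88% ± 0.287 and 5.03% ± 0.369 (SD, n = 4 each). Introns averaged 7.14% ± 0.128 and 7.07% ± 0.483 (SD, n = 4 each). The groups overlapped in every region, and no region passed the test of a difference (exact permutation test, adjusted p = 0.971 for each).

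**Figure D1:**
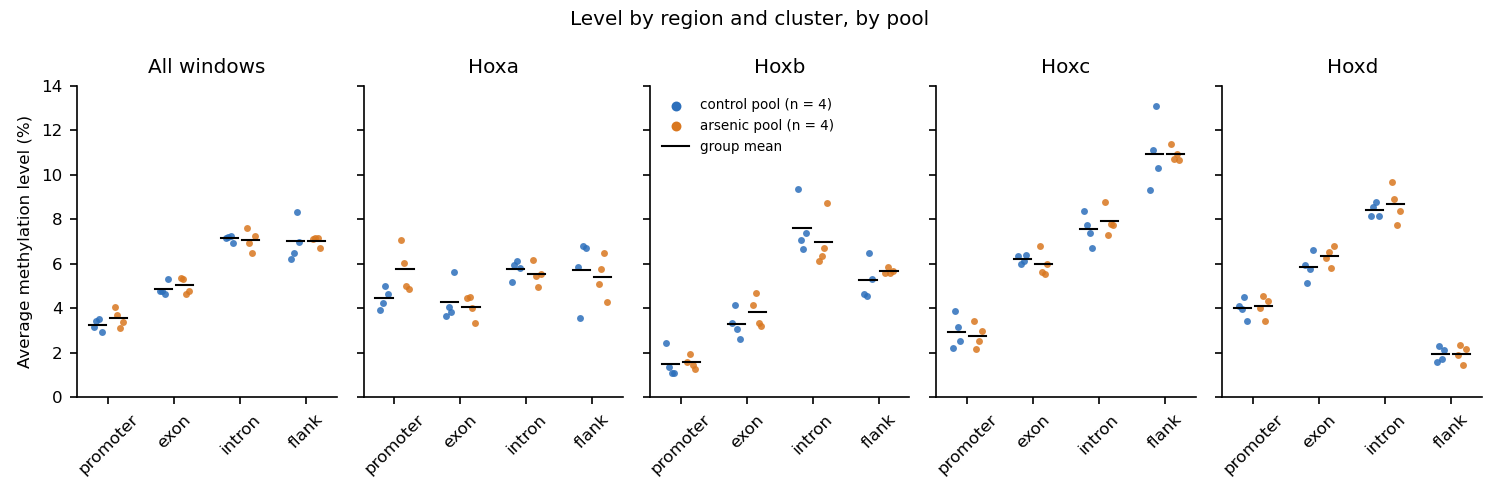
Average methylation level (percent) of promoter, exon, intron and flank cytosines in each of the 8 pools, for all Hox windows and for each cluster, with lines at the group means. The control and arsenic pools overlap in every set, and promoters lie lowest over all windows (3.41%) but not within Hoxa and Hoxd. A cytosine in several kinds of region counts as promoter before exon, exon before intron and intron before flank.

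By cluster and region together, 16 groups of cytosines were compared. Hoxc flanks stood highest at 10.9% and Hoxb promoters lowest at 1.53%. The order of the regions was not the same in each cluster, since Hoxa exons (4.18%) lay below Hoxa promoters (5.10%) and Hoxd flanks (1.95%) below Hoxd promoters (4.04%). The low value of the Hoxd flanks depends on how regions were assigned. The 13 flank cytosines of Hoxd4, at 56.4%, also lie in a Hoxd3 intron and were counted as intron here. Hoxa promoters came nearest to a difference: they read 3.90%, 4.22%, 5.02% and 4.66% in the control pools and 7.08%, 6.03%, 5.02% and 4.86% in the arsenic pools. Only arsenic pool 4 lay within the control range, and arsenic pool 3 lay barely above it (difference of +1.30 points, exact permutation p = 0.0571, adjusted p = 0.914). The others gave adjusted p from 0.945 to 0.971 in the exact permutation test.

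The exons were not uniform. Coding exon cytosines (952) averaged 3.57% and those of 5′ untranslated exons (168) 3.12%, whereas those of 3′ untranslated exons (124) averaged 18.1%, from 16.6% to 18.7% in the pools. The 3′ part exceeded the coding part by 14.5 points in 8 of 8 pools (exact sign-change test, p = 0.00781, the smallest it can give). Of the 16 genes measured there, 12 had at least 3 such cytosines. Their 3′ ends spread over a wide range, with the highest at Hoxc8 (44.8%, 8 cytosines), Hoxc6 (44.2%, 5), Hoxa11 (40.6%, 3), Hoxd3 (38.6%, 12), Hoxa5 (34.7%, 3) and Hoxc5 (22.7%, 26). Those of Hoxb4 (10.5%, 12), Hoxd11 (10.5%, 5) and Hoxc12 (8.99%, 8) lay between, and those of Hoxa10 (2.46%, 13 cytosines), Hoxc13 (2.11%, 11) and Hoxb8 (1.07%, 12) lay below the promoter average. The other 4 genes, with 1 or 2 cytosines each, ran from 6.51% (Hoxd12) to 24.9% (Hoxd4). The 3′ untranslated average was 18.1% ± 0.399 in the control group and 18% ± 0.958 in the arsenic group (SD, n = 4 each), with overlapping groups.

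Methylation fell as CpGs became denser. Hox cytosines with up to 4 CpGs in the surrounding 201 bases (298) averaged 17.0%, those with 5 to 9 (961) 7.70%, those with 10 to 14 (911) 3.44% and those with 15 or more (1006) 1.87%. Other cytosines on the same chromosomes averaged 70.5%, 61.2%, 35.7% and 5.43% in these classes. Hox cytosines were thus lower at every density, by 53.5 points in the sparsest class and by 3.55 points in the densest, in 8 of 8 pools (exact sign-change test, p = 0.00781 for each of the 4 classes). The sequence itself was CpG-rich: the median Hox window had an observed-to-expected CpG ratio of 0.472, 51.6% G and C and 14% repeat-masked bases, against 0.235, 45.1% and 23.0% over 21000 protein-coding genes. These are features of the reference genome and carry no replicate error.

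**Figure D2:**
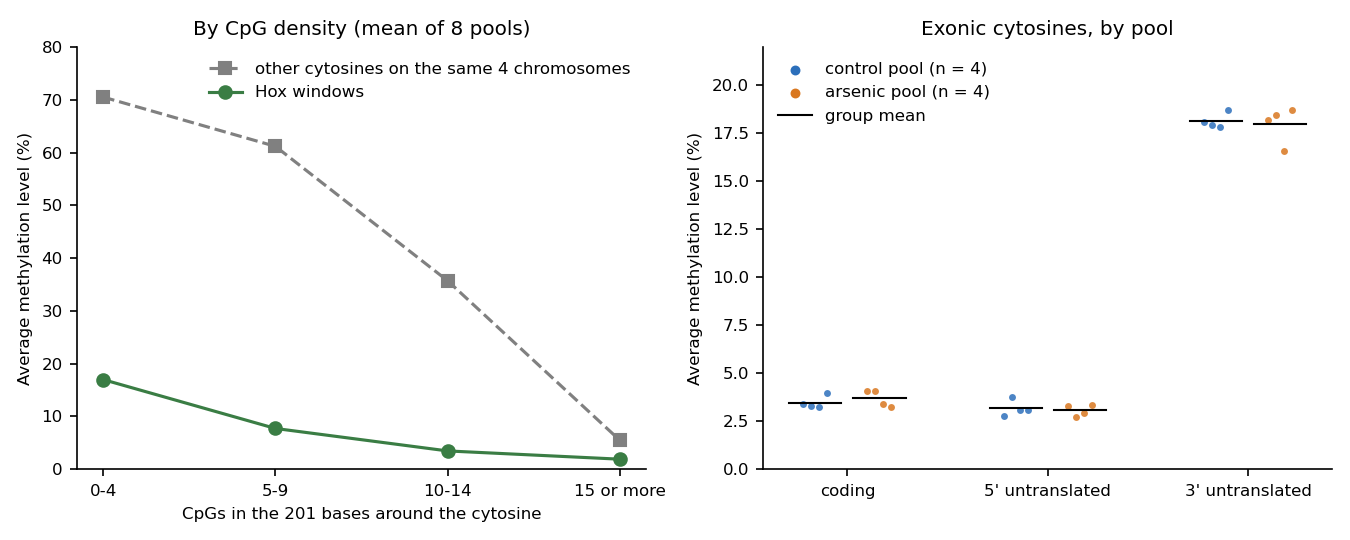
Left, average methylation level (percent) of Hox cytosines and of other cytosines on the same chromosomes by the number of CpGs in 201 bases; right, levels of coding, 5′ untranslated and 3′ untranslated exon cytosines of Hox genes in each pool. Hox levels fall from 17.0% to 1.87% with density, and the 3′ untranslated exons lie near 18.1% in both groups.

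By paralog number, levels were highest in the middle of the clusters. Paralogs 3, 4, 5 and 6 averaged 10.1%, 9.01%, 13% and 10.5%, while paralogs 1 and 2 averaged 2.27% and 2.67%. Paralogs 7 to 13 lay between 2.47% (paralog 7) and 4.62% (paralog 10). Taken as the head, trunk and tail groups of the clusters, paralogs 1 to 3 averaged 8.63%, paralogs 4 to 8 averaged 8.09% and paralogs 9 to 13 averaged 3.43%. The order of the head and trunk groups depended on the weighting: the head group was higher by 0.54 points with each cytosine counted once and lower by 1.23 points with each gene counted once, both in 8 of 8 pools (exact sign-change test, adjusted p = 0.00781 for both). Paralog 3 holds 780 of the 965 cytosines of the head group. The tail group was lower than the head group by 5.20 points and than the trunk group by 4.66 points in 8 of 8 pools (exact sign-change test, adjusted p = 0.00781 for both). Some of these cytosines counted under more than 1 number. The long transcripts of Hoxa3 and Hoxd3 span the genes next to them. Some other neighbouring gene windows, such as those of Hoxb5 and Hoxb6, also overlap. None of the 13 numbers passed the test of a difference between the groups (exact permutation test, adjusted p = 1.00 for each). The widest difference was that of paralog 1, at +0.58 points, where arsenic pools 1 and 4 (5.27% and 3.18%) lay above all control pools and arsenic pools 2 and 3 (1.09% and 0.707%) lay below all control pools (1.33% to 2.58%).

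**Figure D3:**
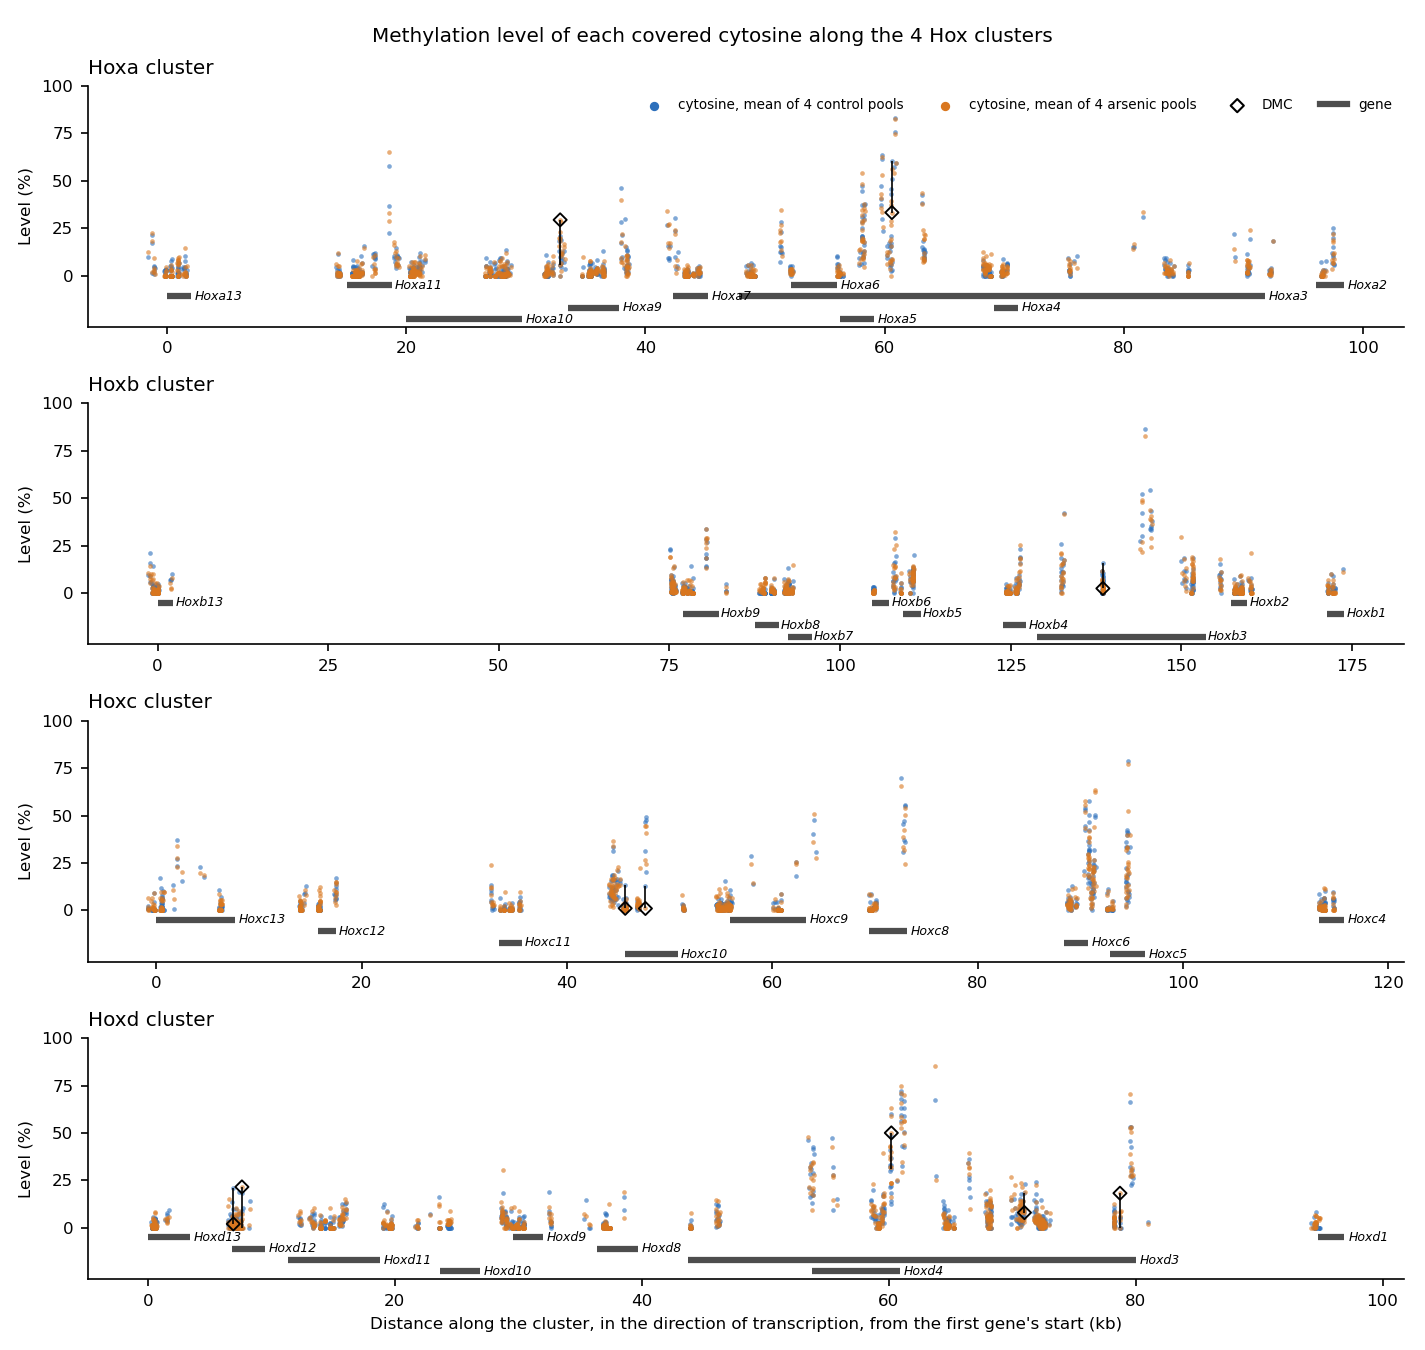
Methylation level (percent) of each measured Hox cytosine along the 4 clusters, as the mean of the 4 control pools (blue) and of the 4 arsenic pools (orange), against the distance in kb in the direction of transcription. Bars are genes to scale, and diamonds are DMCs (defined below) at the arsenic mean with a line to the control mean. Most cytosines lie near 0, and the higher ones gather around Hoxa3 to Hoxa5, Hoxb3, Hoxc5 to Hoxc8 and Hoxd3 to Hoxd4.

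Gene by gene, window levels ran from 1.45% at Hoxb8 to 21.9% at Hoxd4 with a median of 3.23%. Of the 38 windows, 26 averaged below 5% and 6 averaged 10% or more. These 6 were Hoxd4 (21.9%), Hoxc6 (15.7%), Hoxc5 (15.6%), Hoxa5 (15.1%), Hoxb3 (12.3%) and Hoxd3 (11%), all with paralog numbers from 3 to 6. Their paralogs were not all alike: Hoxa4, Hoxb4 and Hoxc4 averaged 2.87%, 2.88% and 2.26%. At the tail end, the digit gene Hoxd13 averaged 1.60%, Hoxa13, which acts with it in the limb tip, 2.35%, the prostate and tail gene Hoxb13 2.69% and the hair follicle gene Hoxc13 3.62%. The median window of 17393 protein-coding genes was 43.7%.

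Hoxd4, which patterns the hindbrain border and neck vertebrae, had the highest window. It read 21.8%, 20.6%, 22% and 22% in the control pools and 22.7%, 24.4%, 19.9% and 22% in the arsenic pools. The arsenic pools lay on both sides of the control pools, and the means differed by +0.64 points (limma SE 0.91). Its promoter (9 cytosines) averaged 26.6%, its exons 15.2%, its introns 15.4% and its flank 56.4%. A stretch just past the end of the gene is shown here because these 13 flank cytosines had the highest level of any promoter, exon, intron or flank set of a Hox gene. It lies at chr2:74729221-74729497 (GRCm38.p6, + strand) and is also part of a Hoxd3 intron. Of the Hoxd4 promoter, only the part at chr2:74721843-74721952 (+ strand) is shown. It holds 4 of the 9 promoter cytosines and averaged 30.9%. This part was picked because each of its measured cytosines was at 20% or more. Capitals mark the measured CpGs.
past the end of Hoxd4: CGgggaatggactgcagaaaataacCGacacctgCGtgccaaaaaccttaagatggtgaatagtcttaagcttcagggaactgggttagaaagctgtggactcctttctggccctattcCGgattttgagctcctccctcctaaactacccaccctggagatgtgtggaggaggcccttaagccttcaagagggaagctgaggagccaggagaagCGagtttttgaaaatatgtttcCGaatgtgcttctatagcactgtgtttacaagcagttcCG
Hoxd4 promoter: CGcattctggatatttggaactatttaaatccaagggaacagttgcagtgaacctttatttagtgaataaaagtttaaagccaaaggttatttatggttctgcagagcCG
The first of these has 7 CpGs in 277 bases and an observed-to-expected ratio of 0.428.

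The long Hoxa3 transcript, from a gene needed for the thymus and parathyroid, carried the other place where successive measured cytosines were each at 50% or more. Only 3 stretches of at least 3 successive measured cytosines, each at 50% or more, were found in the clusters. The first lies in a Hoxa3 intron at chr6:52199921-52200121 (GRCm38.p6, + strand), with 4 measured CpGs in capitals.
Hoxa3 intron: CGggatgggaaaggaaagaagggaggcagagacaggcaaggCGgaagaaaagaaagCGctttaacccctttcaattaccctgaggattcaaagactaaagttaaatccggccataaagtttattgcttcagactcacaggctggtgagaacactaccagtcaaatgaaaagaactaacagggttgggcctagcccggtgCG
It read 69.9%, 70.7%, 69.8% and 65.7% in the control pools and 62.4%, 71.4%, 65.6% and 71.9% in the arsenic pools. The other two lie in the Hoxd4 sequence above. At chr2:74729221-74729256, 6 cytosines read 73.1%, 55.3%, 63.1% and 68.3% in the control pools and 65.6%, 66.6%, 54.8% and 64.8% in the arsenic pools. At chr2:74729458-74729497, 3 cytosines read 62.5%, 63.7%, 61.1% and 65.5% in the control pools and 65.0%, 68.8%, 52.9% and 56.3% in the arsenic pools. In all 3 stretches the groups overlapped (exact permutation p from 0.514 to 0.714). With the level lowered to 20%, a choice made after the values were seen, there were 27 stretches with 145 cytosines, of which 10 lay in Hoxc, 7 in Hoxa, 6 in Hoxd and 4 in Hoxb. The highest of those in Hoxc averaged 51.0% and the highest of those in Hoxb 43.9%.

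No Hox gene window passed limma at an adjusted p of 0.05, as was true of all 17393 windows (0%). At an unadjusted p under 0.05, 1 Hox window passed, against 6.25% of all windows. The groups did not overlap in 1 of the 38 windows, against 4.12% of all windows. The Hox windows were higher in the arsenic group for 23 genes and lower for 15, with differences from -1.22 (Hoxa2) to +1.77 points (Hoxd10) and a median of +0.08 points. Over all windows the median difference was -0.23 points and 38.7% were higher.

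Hoxb8, a gene of blood progenitors and grooming behaviour, was the window without overlap. It read 0.732%, 0.515%, 1.06% and 1.27% in the control pools and 3.01%, 1.39%, 1.63% and 2.01% in the arsenic pools. All arsenic pools lay above all control pools, by +1.12 points on average (limma SE 0.483, unadjusted p = 0.0487, adjusted p = 0.795). The control values lay below the mitochondrial level of the control pools (1.27% to 1.47%) and the arsenic values above that of the arsenic pools (1.07% to 1.29%), but all 8 are in the low range that is not firmly above background. Hoxd10, which specifies motor neurons of the hindlimb, read 2.18%, 0.897%, 0.478% and 1.94% in the control pools and 5.27%, 1.74%, 3.10% and 2.49% in the arsenic pools. Arsenic pool 2 lay below 2 control pools (+1.77 points, limma SE 0.816, adjusted p = 0.797). Hoxc12, of the tail group, read 2.63%, 2.07%, 2.92% and 2.37% in the control pools and 4.18%, 2.66%, 3.17% and 3.52% in the arsenic pools. Only arsenic pool 2 fell within the control range (+0.89 points, limma SE 0.466, adjusted p = 0.805).

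**Figure D4:**
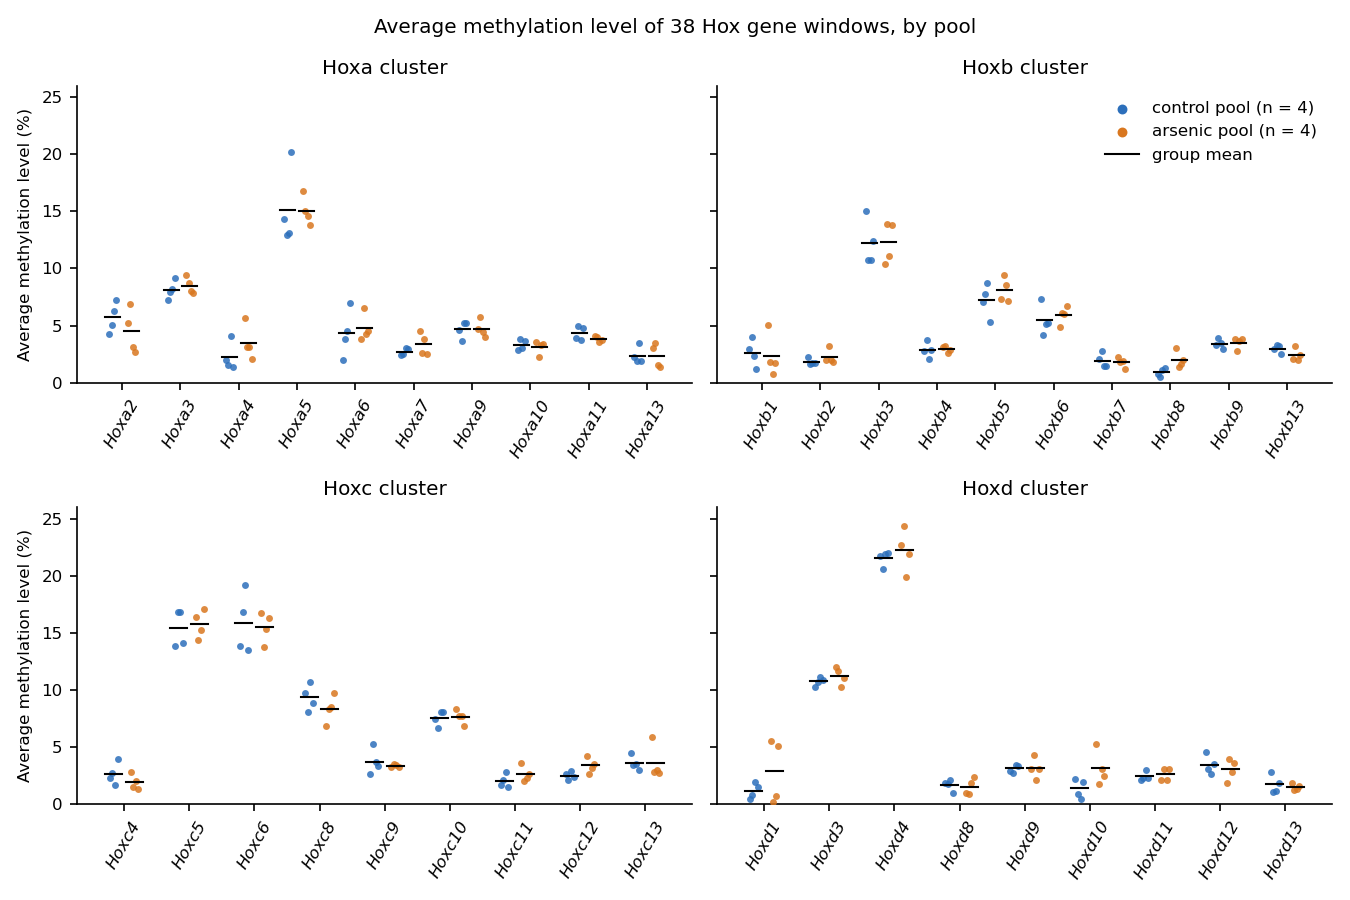
Average methylation level (percent) of the 38 Hox gene windows in each pool, ordered by cluster and paralog number. Levels run from 1.45% (Hoxb8) to 21.9% (Hoxd4), and the pools of both groups overlap in every window but that of Hoxb8.

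Exons and introns were also read gene by gene. Exon levels of the 37 genes with at least 3 exon cytosines ran from 0.933% (Hoxc9) to 22.1% (Hoxa5), and 27 were below 5%. Intron levels of 28 genes ran from 0.724% (Hoxc11) to 19.9% (Hoxc13), and 19 were below 5%. In exons 18 genes were higher and 19 lower in the arsenic group, and in introns 16 were higher and 12 lower. The 55 exon cytosines of Hoxb8, picked after their values were seen, read 0.498%, 0.272%, 0.978% and 1.10% in the control pools and 3.44%, 1.53%, 1.44% and 2.30% in the arsenic pools. As in the whole Hoxb8 window, all arsenic pools lay above all control pools. This was 1 exon set without overlap of 37, against 3.13% of exon sets over all genes. In introns it was 1 of 28, against 3.95% over all genes, and both shares are near the background. The intron set was that of Hoxd10, with 3 cytosines, which read 0% in all control pools and 4.11%, 4.72%, 3.62% and 1.23% in the arsenic pools. These were 0 methylated calls of 253 in the control pools, which allows up to 1.19% by counting error alone, and 11 of 327 in the arsenic pools. The set was picked after its values were seen.

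Promoters could be read for 29 genes, and 9 genes (Hoxa2, Hoxa3, Hoxb2, Hoxb3, Hoxb4, Hoxb8, Hoxc6, Hoxd3 and Hoxd13) had no measured promoter cytosine. Levels ran from 0.887% (Hoxb9) to 26.6% (Hoxd4) with a median of 2.20%. Of the 29, 24 averaged below 5% and only Hoxd4, Hoxa7 (18.5%) and Hoxa9 (12.3%) reached 10%. The median promoter of 10926 genes was at 1.76%, close to that of the Hox promoters. In the arsenic group 16 were higher and 13 lower. No promoter passed limma, as was true of all 10926 promoters (0%). At an unadjusted p under 0.05, 2 Hox promoters passed, against 3.83% of all promoters, and the groups did not overlap in 0 of the 29, against 2.92%.

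The 3 promoters with the lowest unadjusted p were all of Hoxa genes. Hoxa9, a gene of blood stem cells, had 18 promoter cytosines that read 10.7%, 10.7%, 9.59% and 10.5% in the control pools and 16.5%, 16.3%, 9.78% and 14.3% in the arsenic pools. Arsenic pool 3 lay within the control range and the other arsenic pools above it (+3.86 points, limma SE 1.45, unadjusted p = 0.0301, adjusted p = 0.915). Hoxa7 had 6 promoter cytosines that read 14.7%, 12.6%, 16.3% and 13% in the control pools and 31.4%, 15.8%, 27.7% and 16.5% in the arsenic pools. Arsenic pools 1 and 3 were far higher than the rest (+8.66 points, limma SE 3.62, unadjusted p = 0.0458, adjusted p = 0.915). Hoxa4 had 42 promoter cytosines that read 2.27%, 1.26%, 3.65% and 0.868% in the control pools and 7.60%, 3.58%, 3.47% and 2.05% in the arsenic pools. Only arsenic pool 1 lay above the control range (+2.16 points, limma SE 1.24, adjusted p = 0.915).

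The lowest Hoxa promoter and the highest and lowest promoters of the other clusters did not separate the groups. In Hoxa, where Hoxa7 was highest, the lowest promoter was that of Hoxa13 (17 cytosines), which read 1.44%, 1.39%, 3.3% and 0.406% in the control pools and 2.14%, 0%, 0.226% and 0.245% in the arsenic pools. In Hoxb, Hoxb7 (45 cytosines) read 2.69%, 1.78%, 1.26% and 1.54% in the control pools and 2.23%, 2.25%, 1.61% and 0.909% in the arsenic pools. Hoxb9 (26 cytosines) read 1.66%, 0.773%, 0.154% and 0% in the control pools and 0.577%, 0.676%, 1.26% and 2.00% in the arsenic pools. The groups overlapped in both. In Hoxc, Hoxc11 (14 cytosines) read 3.20%, 4.28%, 5.35% and 3.61% against 9.80%, 3.04%, 4.28% and 5.80%. Hoxc12 (11 cytosines) read 1.83%, 1.82%, 0.909% and 0% against 0.455%, 0.364%, 0.985% and 1.63%. Of these only Hoxc11 in arsenic pool 1 stood well away from the others. In Hoxd, the Hoxd4 promoter read 28.3%, 30.4%, 25.8% and 21.8% against 28.3%, 25.6%, 26.8% and 26%, a difference of +0.07 points (limma adjusted p = 0.997). Hoxd8 (35 cytosines) read 1.90%, 1.78%, 1.93% and 0.757% against 0.241%, 1.02%, 1.11% and 1.44%. The high level of the Hoxd4 promoter was thus shared by all 8 pools.

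Single cytosines were then tested by the rule used in the study, a logistic regression on read counts with q of at most 0.01 and a difference of at least 10 points, which defines differentially methylated cytosines (DMCs). The Hox windows held 10 DMCs (0.315% of their cytosines), against 0.552% of all cytosines. Of these, 6 were hypoDMCs, lower in the arsenic group (all cytosines, 0.323%), and 4 were hyperDMCs (all cytosines, 0.228%). Hoxd held 5, Hoxa 2, Hoxc 2 and Hoxb 1, and 4 lay in exons, 4 in introns, 2 in promoters and 0 in flanks. Below a level of 5% a 10-point difference is hard to reach, and there 0 of 2286 Hox cytosines were DMCs, against 0.0215% of others. Between 5% and 20%, 8 of 682 (1.17%) were DMCs, against 1.25% of other cytosines in that class, and between 20% and 50% 2 of 174 (1.15%) against 0.999%. The groups did not overlap at 36 Hox cytosines (1.13%), against 2.1% of all cytosines. They did not overlap at 8 of the 10 Hox DMCs, against 44% of all DMCs, and the DMC rule uses the same contrast, so nothing is read from this count.

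The logistic regression treats every read as independent and takes no account of the spread between pools. With an F test that allows for that spread 0 Hox cytosines were called, and with limma on log2 ratios of reads likewise 0. At an unadjusted p under 0.05 there were 141 Hox cytosines (4.44%) by the F test, against 3.87% of all, and 146 (4.60%) by limma, against 5.11% of all. The lowest q anywhere was 0.893 and 0.917 in these tests. The DMC counts also moved with single pools: there were 3 hypoDMCs without arsenic pool 3 and 11 without control pool 4, and 2 hyperDMCs without control pool 1 and 7 without arsenic pool 1. Over all cytosines there were 6464 hypoDMCs without arsenic pool 3 and 7739 without control pool 4, against 6885 with all pools. HyperDMCs over all cytosines numbered 5164 without control pool 1 and 4933 without arsenic pool 1, against 4867. The Hox DMCs are therefore described below as sites at which pooled reads differed.

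The 4 widest hypoDMCs and 3 of the 4 hyperDMCs are shown first by sequence, to place the CpG of each, in capitals, within 20 bases on either side (GRCm38.p6, + strand).
Hoxa3 intron, chr6:52200242-52200282: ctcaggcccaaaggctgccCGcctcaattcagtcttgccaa
Hoxd12 exon, chr2:74675129-74675169: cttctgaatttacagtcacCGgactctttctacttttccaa
Hoxb3 intron, chr11:96332826-96332866: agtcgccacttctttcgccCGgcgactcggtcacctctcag
Hoxc10 promoter, chr15:102966769-102966809: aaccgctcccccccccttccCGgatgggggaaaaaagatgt
Hoxd3 exon, chr2:74746939-74746979: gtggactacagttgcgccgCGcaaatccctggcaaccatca
Hoxd12 exon, chr2:74675826-74675866: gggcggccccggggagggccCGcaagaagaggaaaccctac
Hoxa9 promoter, chr6:52227985-52228025: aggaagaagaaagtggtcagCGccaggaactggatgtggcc

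Among the hypoDMCs, the widest difference was at position 52200262 of chromosome 6 (- strand) in a Hoxa3 intron, close to the methylated stretch shown above. It read 62.5%, 71.4%, 56.9% and 51.2% in the control pools and 51.9%, 29.5%, 18.4% and 33.3% in the arsenic pools, on 27 to 64 reads each. Arsenic pool 1 lay within the control range (pooled-read difference of -28.1 points, logistic q = 9.35e-05). The same CpG read on the + strand was +5.21 points higher in the arsenic group, and 9 cytosines within 100 bases differed by +3.76 points. In the coding exon of Hoxd12, a limb gene, position 74675149 of chromosome 2 (- strand) read 34.8%, 11.8%, 23.1% and 15% against 8.33%, 0%, 0% and 0% (-17.9 points, q = 0.000464). Here every arsenic pool lay below every control pool, while 14 cytosines within 100 bases differed by -0.10 points. Position 96332846 of chromosome 11 (- strand) in a Hoxb3 intron read 21.1%, 13.3%, 16.9% and 11.1% against 0%, 3.51%, 6.25% and 0% (-13 points, q = 0.00106). Position 102966789 of chromosome 15 (+ strand), just before the start of Hoxc10, a motor neuron gene of the lumbar cord, read 12.5%, 13.6%, 17.0% and 10% against 0%, 0%, 4.55% and 0% (-12.3 points, q = 0.000289). Its partner on the other strand differed by -0.30 points. The pools at 0% at these hypoDMCs had 28 to 66 reads, which allow a level of up to 10.7% and 4.55%. The other two hypoDMCs, in introns of Hoxc10 and Hoxd3, differed by -12.2 and -10.3 points.

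Among the hyperDMCs, the widest was at position 52228005 of chromosome 6 (+ strand) in the Hoxa9 promoter. It read 3.70%, 8.0%, 11.1% and 0% in the control pools and 24.1%, 38.1%, 15.4% and 40.0% in the arsenic pools (+23.3 points, q = 0.000497). Its 8 neighbours within 100 bases differed by +3.07 points and the same CpG on the other strand by -1.07 points. Position 74675846 of chromosome 2 (+ strand) in a coding exon of Hoxd12 read 0% in all control pools (0 of 56 reads, which allows up to 5.36%) and 11.1%, 18.2%, 28.6% and 28.6% in the arsenic pools (+20.6 points, q = 0.00419). Its 7 neighbours differed by -4.24 points. Position 74746959 of chromosome 2 (- strand) in a coding exon of Hoxd3 read 0% in all control pools (0 of 64 reads, which allows up to 4.69%) and 30%, 16.7%, 17.4% and 9.09% in the arsenic pools (+16.2 points, q = 0.00527). These limits cover counting error only. The last pair of sites had the fewest reads, 12 to 22 and 10 to 44 per pool.

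**Figure D5:**
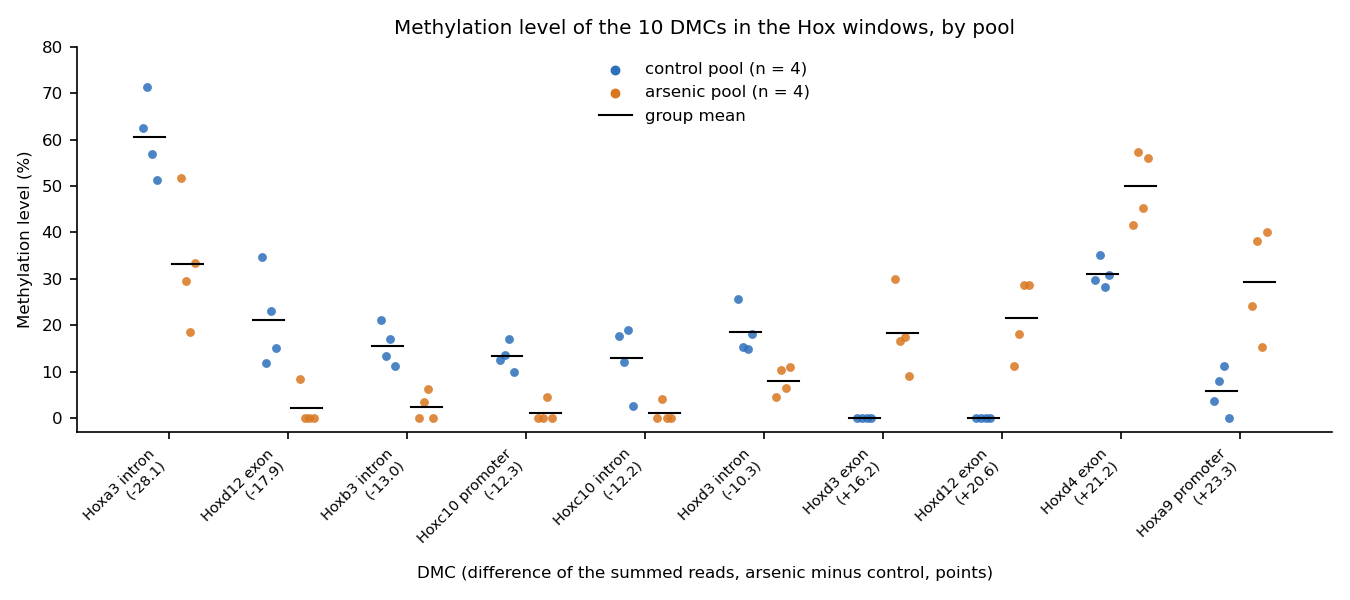
Methylation level (percent) of the 10 Hox DMCs in each of the 8 pools, named by gene and region. The pools of the groups do not overlap at 8 of them (44% of all DMCs do not overlap), and overlap at 1 Hoxa3 intron site and 1 Hoxc10 intron site.

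Neighbouring cytosines were also joined in windows of 1 kb with at least 3 cytosines. Of 159 Hox windows, 99 averaged below 5% and 20 averaged 20% or more, and the median was 3.32% against 78.8% over all 198209 windows. The quasi-binomial test, which allows for the spread between pools, called 0 of the 159 Hox windows, as it called 0% of all windows. At an unadjusted p under 0.05 there were 6 Hox windows (3.77%), against 4.51% of all windows. The lowest p was at chr11:96282001-96283000 in Hoxb8 exon sequence, which read 0.505%, 0.273%, 0.297% and 0.267% in the control pools and 1.05%, 3.32%, 3.00% and 1.57% in the arsenic pools (+1.87 points, unadjusted p = 0.00358). The arsenic pools were all higher. Arsenic pool 1 lay below its mitochondrial level of 1.23% and the other 3 arsenic pools above theirs, with the same limit as for the whole Hoxb8 window. The window at chr6:52243001-52244000 in Hoxa11, a limb and reproductive tract gene, read 5.21%, 11.7%, 9.06% and 10.7% against 4.14%, 5.0%, 3.70% and 4.31% (-4.86 points, unadjusted p = 0.00969), with all arsenic pools lower. The window at chr11:96277001-96278000 past the end of Hoxb9 read 2.40%, 2.26%, 2.18% and 2.98% against 1.55%, 1.62%, 1.31% and 0.991% (-1.08 points). In the window at chr15:102920001-102921000 in the Hoxc13 promoter the levels were 0.367%, 0.922%, 1.49% and 0.956% against 3.28%, 1.63%, 2.83% and 1.48% (+1.28 points), with arsenic pool 4 just inside the control range. The adjoining window at chr15:102921001-102922000, in Hoxc13 exon sequence, went the other way (-1.47 points, quasi-binomial test, unadjusted p = 0.0426). The smallest q among Hox windows was 0.977.

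Genes that act with or upon the Hox clusters were read in the same way. Among 9 TALE cofactors, the Pbx, Meis and Pknox proteins that bind DNA together with Hox proteins, 2 windows were higher in the arsenic group and 0 passed limma after adjustment. Of 19 Polycomb genes, which code for repressors of Hox clusters, 4 were higher and 0 passed, and of 8 Trithorax genes, which code for their activators, 1 was higher and 0 passed. Of 9 retinoic acid and caudal genes, which act upstream of Hox genes, 1 was higher and 0 passed. Of 5 even-skipped and ParaHox genes, the relatives of the clusters, 1 was higher and 0 passed. Over all 17393 windows, 38.7% were higher and 0 passed. The median window difference was -0.62 points for the TALE cofactors, -0.34 for Polycomb, -0.30 for Trithorax, -0.14 for the retinoic acid and caudal genes and -0.79 for the even-skipped and ParaHox genes, against -0.23 over all windows. The genes of the microRNAs Mir10b, Mir10a and Mir615 lie inside the Hoxd4, Hoxb4 and Hoxc5 windows, and no cytosine was covered within 300 bases of them.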

How the data were processed

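Reduced representation bisulfite sequencing (RRBS) was measured in 4 control and 4 arsenic pools. Per the file header and the study's methods, the authors trimmed reads with Trim Galore 0.6.5, mapped them to mm10 with Bismark 0.22.3 and joined the samples with methylKit 1.22.0, and deposited raw counts per cytosine and strand: the coverage, the reads that kept C and the reads with T. Every deposited cytosine has at least 10 reads in each sample, and the counts are not normalized. RRBS reads come from cut sites without molecular identifiers, so duplicate reads cannot be told apart, and intervals cover counting error only. RRBS samples mainly CpG-rich fragments, so CpG-poor Hox sequence is thinly represented.

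Groups were taken from the sample titles. Of 2131605 cytosines, the 2130064 on chromosomes 1 to 19, X and Y were used. The Hox genes were proposed as the subject, and the gene lists written, with earlier results of these data known, although membership itself follows from gene symbols alone. Genes and regions came from RefSeq for GRCm38.p6, the assembly of mm10. A cytosine in several windows was counted once in cluster, region and overall averages. Where it fell in several kinds of region, promoter came before exon, exon before intron and intron before flank. Group differences in average levels were tested by exact permutation over samples (70 assignments, two-sided, smallest p of 0.0286), and differences between regions or clusters by exact sign changes over the 8 samples (smallest p of 0.00781). DMCs came from a likelihood-ratio test of a logistic regression on counts summed by group, with q over all cytosines. The 1 kb windows were tested by a quasi-binomial F test. Gene windows and promoters with at least 3 cytosines were tested with limma 3.58.1 in R 4.3.3 over all protein-coding genes, with Benjamini-Hochberg adjustment. Other steps used Python 3.11.15 with numpy 2.4.6, scipy 1.17.1 and pandas 2.3.3, and were tested on simulated data.

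Values in every pool are given for the highest and lowest promoter of each cluster, the 3 gene windows and 3 promoters with the lowest limma p, the 4 widest DMCs in each direction (1 of them is not reported here by site), the 4 windows of 1 kb with the lowest p, and stretches at 50% or more. Genes and stretches named beyond this rule were chosen after their values were seen. No pair of libraries agreed within sampling noise (chi-square per cytosine of 1.96 to 2.08 for all pairs), so none was counted as a duplicate. Alternatives covered coverage, weighting, strands, promoter bounds, the test, the replicate block and leaving out each pool.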

Additional observations from a re-analysis of the deposited data

Results flagged for a closer look

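In 12 of 184 groups of 4 pools examined, 1 pool lay far from the others for its group. Chance gives this in about 1 of 20 groups, or 9.2 of the 184, so the number itself is near what chance gives. In the control group, control pool 3 was low at the Hoxa9 promoter (9.59%, the others 10.5% to 10.7%), control pool 4 was low at the Hoxd8 promoter (0.757%, the others 1.78% to 1.93%) and control pool 2 was low in the Hoxd4 window (20.6%, the others 21.8% to 22%). Control pool 1 was high in the Hoxb2 window (2.25%, the others 1.62% to 1.72%) and at the Hoxb6 promoter (7.77%, the others 0% to 1.25%). In the arsenic group, pool 1 was high at the Hoxa13 promoter (2.14%, the others 0% to 0.245%), at the Hoxb1 promoter (6.35%, the others 0.722% to 1.55%) and in the Hoxc13 window (5.92%, the others 2.74% to 2.97%). Arsenic pool 2 was high at the Hoxa5 promoter (3.01%, the others 0.699% to 0.915%), in the Hoxb2 window (3.18%, the others 1.79% to 2.01%) and at the Hoxb6 promoter (1.00%, the others 0%). Arsenic pool 4 was low in the flanks of all Hox genes (6.73%, the others 7.11% to 7.17%).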

How the results depend on the processing

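Depth and coverage of CpGs set the limits here: levels near the mitochondrial background are not resolved, and unread CpGs may differ. Differences between the groups below are arsenic minus control, in percentage points. With a coverage of at least 20, they were -0.0252 for Hox, -0.0710 for Hoxb and -0.10 for exons. The Hox difference exceeded that of the other cytosines by 0.28 (exact permutation p = 0.114). The level of Hoxc minus Hoxd was -1.45, of exons minus flanks 0.68 and of introns minus flanks 1.38, and 2 hyperDMCs were found. At a coverage of at least 30, Hoxb differed by -0.14, the contrast with other cytosines was 0.44 (exact permutation p = 0.0857), Hoxa minus Hoxb was 0.32, Hoxc minus Hoxd -3.91, exons minus introns 0.12, exons minus flanks 2.14 and introns minus flanks 2.02, with 3 hypoDMCs and 1 hyperDMC. With coverage weights, Hox differed by -0.0338, Hoxb by -0.0391 and flanks by -0.15, the contrast was 0.68 (exact permutation p = 0.143), Hoxc minus Hoxd -0.53 and introns minus flanks 1.21. With both strands summed, Hoxa differed by -0.0391, Hoxc by 0.0115 and flanks by -0.0160, with 2 hypoDMCs. With promoters from 2 kb upstream, flanks differed by -1.01, promoters minus exons was 0.0928 and introns minus flanks -0.69. With each gene counted once, introns differed by 0.15, Hoxa minus Hoxd was -0.14, Hoxc minus Hoxd 1.47, exons minus introns -0.35 and introns minus flanks -5.80, and paralogs 1 to 3 minus paralogs 4 to 8 was -1.23. The overdispersion F test left 0 hypoDMCs and 0 hyperDMCs and limma on log2 ratios 0 and 0. A limit of 20 points left 1 hypoDMC and 3 hyperDMCs. Over all cytosines the main test gave 6885 hypoDMCs and 4867 hyperDMCs. These counts were 5448 and 3712 with at least 20 reads, and 4208 and 2666 with at least 30. They were 4084 and 2616 with both strands summed, 1834 and 1307 at 20 points, and 0 and 0 in the F test and limma. The cause of these changes was not tested.

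The replicate numbers shared by the groups do not pair the samples: deviations of same-numbered pools correlated from -0.0353 to 0.0287 over gene windows. With the replicate block the contrast with other cytosines was 0.42 with an exact p of 0.125, the smallest that 4 pairs allow, and 4 hypoDMCs and 1 hyperDMC were found. Under it 3 of the 4 hyperDMCs, those in Hoxd exons, lost their call. Over all cytosines the block left 4758 hypoDMCs and 3277 hyperDMCs, against 6885 and 4867 without it.

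Leaving out each pool in turn gave differences from -0.0228 to 0.24 for Hox, -0.16 to 0.24 for Hoxa, 0.0495 to 0.35 for Hoxb, 0.20 to 0.53 for Hoxd, 0.15 to 0.45 for promoters, 0.0396 to 0.29 for exons, -0.34 to 0.0603 for Hoxc, -0.25 to 0.13 for introns and -0.24 to 0.47 for flanks. The contrast with other cytosines ran from 0.36 to 0.48, where 0.0571 is the smallest exact permutation p. Hoxc minus Hoxd ran from 0.18 to 0.40 and introns minus flanks from -0.0434 to 0.25. Of differences that were not called, that of the Hoxa4 promoter ran from 1.02 to 2.87 and that of the Hoxd10 window from 1.07 to 2.24. There were 3 to 11 hypoDMCs and 2 to 7 hyperDMCs in the Hox windows. Over all cytosines there were 6464 to 7739 hypoDMCs and 4818 to 5422 hyperDMCs. The levels of Hoxb against Hoxc and Hoxd, of promoters against introns and flanks, of the tail paralogs against the head and trunk paralogs and of the 3′ against the coding exons kept their direction and their call under each alternative run for them, and 0 gene windows, promoters and 1 kb windows of the clusters were called in any of them.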
